A study of Canis lupus familiaris with 15 samples.

Results

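In a filter-grown dog kidney cell line, 16 genes had, on at least 1 probe set, about the same level with hepatocyte growth factor (HGF) as without it. On that probe set their level was higher when HGF was combined with either of the MAPK pathway inhibitors used. The genes were selected on group means of log2 intensity, out of 10287 genes represented by 18490 probe sets. These probe sets had 1 annotated symbol and reached a log2 of 4 on at least 3 of 15 arrays. A gene was taken when HGF minus Control lay between -0.3 and 0.3 and both HGF + PD minus Control and HGF + UO minus Control were at least 0.8 on the same probe set. Where several probe sets of a gene met these limits, the brightest was used. The differences from Control and from HGF are therefore a description of how the genes were chosen and carry no test here. The limits used each inhibitor group against Control and not the difference between the inhibitor groups. That difference was tested, on genes already required to be high in both groups.

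The cells were MDCK cells, an established epithelial line from dog kidney, kept on Transwell filters for 7 days. The HGF + UO group (n = 3 arrays) received HGF at 100 ng/ml for 24 h with the compound spelled UO126 in the labels at 10 uM. The HGF + PD group (n = 4) received the same HGF with the compound spelled PD09859 at 50 uM. The HGF group (n = 4) received HGF alone, and the Control group (n = 4) received neither HGF nor a compound, and no vehicle is named for it. The names were read as U0126 and PD98059, inhibitors of the kinase MEK. Cells given a compound without HGF were not analysed here, so an effect of a compound on its own and an effect that needs HGF cannot be told apart.

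HGF activates the receptor tyrosine kinase MET, which signals through RAS, RAF, MEK and ERK as well as through other routes such as PI3K. In MDCK cells HGF loosens the epithelial sheet and induces scattering and tubule formation. MEK inhibitors block the step that phosphorylates ERK and leave the receptor and its other routes in place. Several compounds of this kind are also known to act on the aryl hydrocarbon receptor, a sensor of small aromatic molecules. The 16 genes belong to no single pathway and are taken below by what their products do.

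The arrays were even in brightness in the deposited values, which had already been normalised between arrays. The median intensity lay between 40.2 and 42.5 on all 15 arrays, and HGF + UO replicate 2 had the highest (42.5). The log2 signal of the actin control near the 3' end exceeded that near the 5' end by 4.66 ± 0.03 in HGF + UO (SD, n = 3), 4.51 ± 0.09 in HGF + PD, 3.94 ± 0.07 in HGF and 4.43 ± 0.12 in Control (n = 4 each), and its part in the results was not tested. Of the 12 listed markers of kidney epithelium 11 were on the array and all 11 passed the filter, led by EPCAM and the keratins KRT8 and KRT18. Their summed intensity was 87558 to 96311 in HGF + UO and 81964 to 102537 in HGF + PD. It was 84736 to 101633 in HGF and 114939 to 124438 in Control. The sum was thus lower in all 3 groups that received HGF, but it rests mostly on the brightest markers. By limma's moderated test at an adjusted p under 0.05, 2 of the 11 were higher and 6 lower than Control in HGF. In each inhibitor group 0 were higher and 8 lower. Those higher in HGF were CDH1 (10.40 against 9.80 in Control) and CLDN4 (12.01 against 10.96). The part of these markers in the results was not tested. Summed markers of fibroblasts stayed between 266 and 317, and those of endothelium between 452 and 554. Summed leukocyte markers were 111 to 120.04 in HGF + UO, 107 to 111 in HGF + PD, 131 to 381 in HGF and 117 to 122 in Control. Of the markers on the array 4 of 8 for fibroblasts, 4 of 7 for endothelium and 2 of 7 for leukocytes passed the filter, and COL1A1, DCN, VWF and PTPRC were among those below it. The brightest that passed were PDGFRA (6.47 in HGF + UO, 6.47 in HGF + PD, 6.55 in HGF and 6.60 in Control), CDH5 (8.09, 8.10, 8.19 and 8.23 in the same groups) and CD3E (5.95, 5.91, 5.89 and 6.04). CD68, a macrophage marker, read 3.38 in HGF + UO, 3.11 in HGF + PD, 6.28 in HGF and 3.25 in Control. Their part in the results was not tested. In pooled RNA, fewer cells of a type and less RNA per cell cannot be told apart.

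Few genes met all the conditions. HGF minus Control lay within 0.3 for 51.4% of the 18490 probe sets. HGF + PD minus Control reached 0.8 for 3.41% of them and HGF + UO minus Control for 2.22%. Both reached 0.8 for 344 probe sets, of which 267 were also more than 0.3 above Control with HGF alone, 58 more than 0.3 below it, and 19 within the window. These 19, or 0.103% of the 18490, belong to the 16 genes. In the other direction, 34 probe sets of 30 genes lay within the window and at least 0.8 below Control with both inhibitors.

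**Figure D1:**
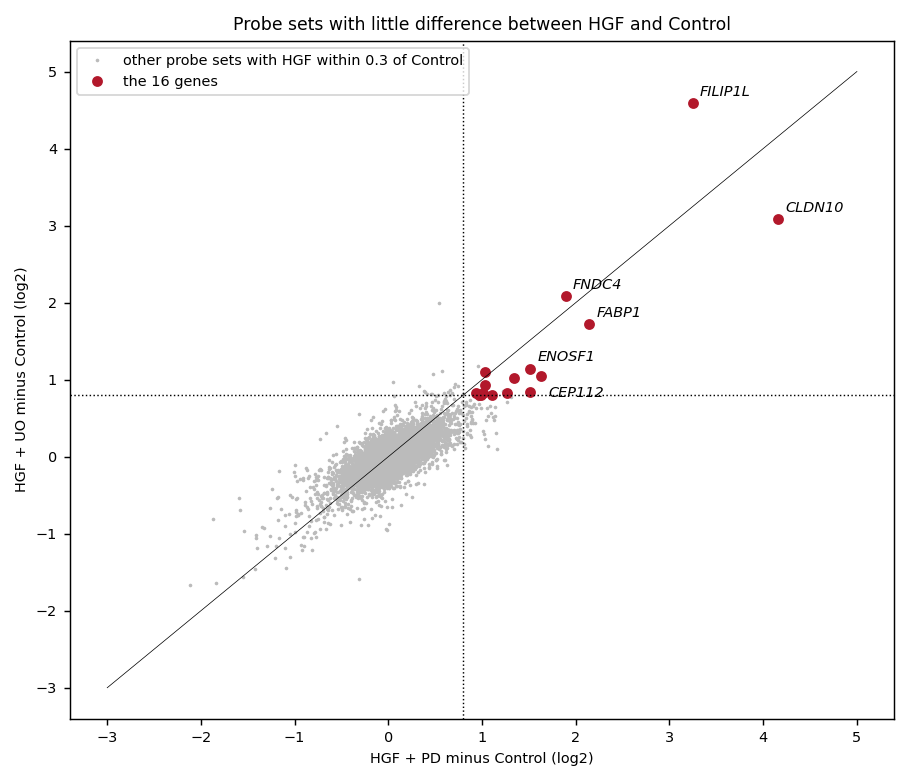
Difference from Control (log2) with HGF + PD on the horizontal axis and with HGF + UO on the vertical axis, for the 9507 probe sets whose HGF mean lay within 0.3 of Control. Red points are the probe sets of the 16 genes, dotted lines mark 0.8 and the thin line marks equal differences; FILIP1L (4.59 with HGF + UO and 3.25 with HGF + PD) and CLDN10 (3.08 with HGF + UO and 4.16 with HGF + PD) stand furthest from the limits.

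The 16 genes ranged from barely past the limit to many times the Control level. HGF + UO minus Control ran from 0.80 to 4.59 (median 0.98), and HGF + PD minus Control from 0.94 to 4.16 (median 1.30). HGF minus Control ran from -0.28 to 0.21. All HGF + PD arrays were above all Control arrays for 16 of 16 genes, against a background of 18.4% of the 24904 probe sets past the filter. The same held for HGF + UO in 16 of 16, against 16.1%, and both counts follow from the choice of the genes. The HGF and Control arrays overlapped for all 16, which goes with the window of 0.3 used in the choice. No share over all probe sets was computed for this overlap.

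**Figure D2:**
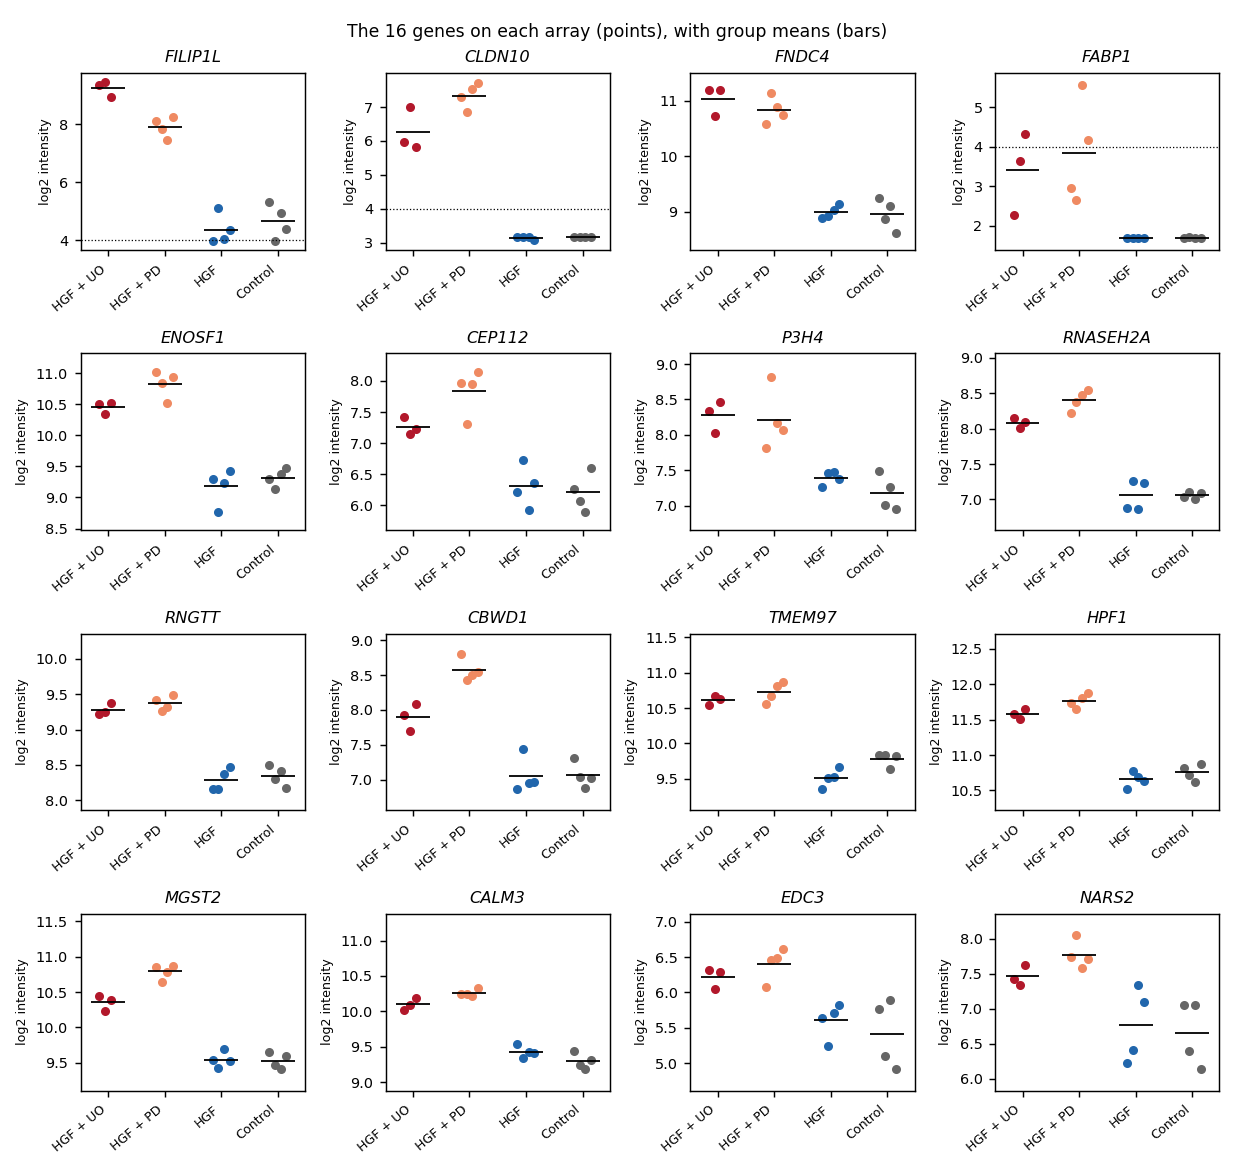
Log2 intensity of each of the 16 genes on each array (points), with the group mean (bar) and the filter level of 4 (dotted line) where it falls in range. The vertical axis differs between panels. In every panel the HGF and Control points overlap, and the HGF + UO and HGF + PD points lie above both, which follows largely from how the genes were chosen.

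FILIP1L, a filamin-binding protein that slows migration of human cells when overexpressed, had the highest level relative to Control with UO. Its log2 intensity was 9.35, 9.45 and 8.93 in HGF + UO, and 8.10, 7.83, 7.44 and 8.24 in HGF + PD. It was 3.98, 5.10, 4.04 and 4.37 in HGF, against 5.31, 3.97, 4.95 and 4.40 in Control. The inhibitor arrays stood apart from all 8 others, which scattered around the filter level. The mean was 4.59 ± 0.32 above Control on the log2 scale with HGF + UO (SE; 24.0-fold) and 3.25 ± 0.30 above it with HGF + PD. Sizes of genes this close to the filter in Control depend on the background that the GCRMA summary subtracts.

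CLDN10, a claudin that forms ion-selective pores between tubule cells, was near the floor of the array in cells without inhibitor. It read 5.96, 7.00 and 5.82 in HGF + UO, and 7.29, 6.85, 7.52 and 7.70 in HGF + PD. In HGF it read 3.16, 3.17, 3.18 and 3.08, and in Control 3.18, 3.18, 3.17 and 3.17. The 8 arrays without inhibitor differed by no more than 0.1 and all lay below the filter, while the 7 inhibitor arrays lay well above it. The means lay 3.08 ± 0.23 above Control with HGF + UO and 4.16 ± 0.22 above it with HGF + PD on the log2 scale (SE). Because Control lay at the floor, these sizes depend on the scale: with 32 added to every intensity they were 1.42 with HGF + UO and 2.25 with HGF + PD.

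FABP1, the liver-type fatty acid-binding protein that is also found in proximal tubules of human kidney, was the dimmest of the 16. The chosen probe set read 2.27, 3.65 and 4.33 in HGF + UO and 2.96, 2.66, 5.57 and 4.17 in HGF + PD. It read 1.69, 1.68, 1.69 and 1.69 in HGF and 1.70, 1.71, 1.68 and 1.69 in Control. It passed the filter on only 3 arrays, all with an inhibitor, and scattered most within the inhibitor groups (SD 1.05 in HGF + UO and 1.33 in HGF + PD). CLDN10 likewise reached the filter only on the 7 inhibitor arrays and FILIP1L on 13, so the filter itself kept FABP1 and CLDN10 through the groups where they are high. The other 13 genes reached it on all 15 arrays.

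FNDC4, a small fibronectin type III domain protein related to the irisin precursor, was well expressed in every group. It read 11.19, 10.73 and 11.20 in HGF + UO and 10.58, 11.15, 10.89 and 10.75 in HGF + PD. It read 8.89, 8.92, 9.04 and 9.14 in HGF, against 9.24, 8.86, 9.10 and 8.61 in Control. Among the genes far above the filter it was the furthest from Control, at 4.25-fold with HGF + UO and 3.71-fold with HGF + PD.

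The next 5 genes take part in DNA repair or in the making and turnover of RNA and its translation. RNASEH2A, the catalytic subunit of the nuclease that removes ribonucleotides from DNA, read 8.14, 8.01 and 8.10 in HGF + UO and 8.22, 8.38, 8.47 and 8.54 in HGF + PD, against 6.88, 7.26, 6.86 and 7.23 in HGF and 7.03, 7.11, 7.01 and 7.09 in Control. Its Control arrays were tight and lay inside the range of the HGF arrays. HPF1, which directs PARP enzymes to modify serine at DNA breaks, was the brightest of the 16, at 11.58 ± 0.07 in HGF + UO (SD, n = 3), 11.77 ± 0.09 in HGF + PD, 10.65 ± 0.11 in HGF and 10.76 ± 0.11 in Control (n = 4 each). RNGTT, the enzyme that caps new mRNA, averaged 9.28 ± 0.08 in HGF + UO, 9.37 ± 0.10 in HGF + PD, 8.29 ± 0.16 in HGF and 8.34 ± 0.14 in Control. These 3 genes lay 0.83 to 1.02 above Control with HGF + UO and 1.01 to 1.34 above it with HGF + PD.

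EDC3, a scaffold of the mRNA decapping complex, and NARS2, the mitochondrial asparaginyl-tRNA synthetase, were noisier. EDC3 read 6.32, 6.05 and 6.29 in HGF + UO and 6.07, 6.46, 6.49 and 6.61 in HGF + PD, against 5.64, 5.24, 5.71 and 5.83 in HGF and 5.76, 5.10, 5.90 and 4.91 in Control. The lowest HGF + UO array was only slightly above the highest Control array. NARS2 read 7.42, 7.34 and 7.62 in HGF + UO and 7.73, 8.05, 7.58 and 7.71 in HGF + PD, against 6.23, 6.42, 7.34 and 7.10 in HGF and 7.06, 6.39, 7.06 and 6.14 in Control. Both reached 0.80 above Control in HGF + UO, at the very limit.

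Another 5 genes have roles in metabolism or protein modification. ENOSF1, a mitochondrial enzyme of the enolase superfamily, averaged 10.46 ± 0.10 in HGF + UO, 10.83 ± 0.22 in HGF + PD, 9.18 ± 0.29 in HGF and 9.32 ± 0.14 in Control. MGST2, a membrane-bound glutathione transferase, read 10.45, 10.23 and 10.39 in HGF + UO and 10.86, 10.64, 10.79 and 10.88 in HGF + PD, against 9.54, 9.42, 9.69 and 9.52 in HGF and 9.66, 9.46, 9.41 and 9.59 in Control. Its HGF and Control arrays shared 1 range, with HGF + UO above them and HGF + PD highest. TMEM97, an endoplasmic reticulum protein that binds the cholesterol transporter NPC1, averaged 10.62 ± 0.07 in HGF + UO, 10.72 ± 0.14 in HGF + PD, 9.52 ± 0.13 in HGF and 9.78 ± 0.09 in Control. TMEM97 sat low in HGF: only the highest HGF array (9.67) exceeded the lowest Control array (9.64).

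CBWD1, a GTPase described in human cells as a zinc chaperone, read 7.93, 7.70 and 8.09 in HGF + UO and 8.80, 8.43, 8.50 and 8.55 in HGF + PD, against 6.86, 7.44, 6.95 and 6.97 in HGF and 7.31, 7.04, 6.89 and 7.02 in Control. The inhibitor groups did not overlap each other. P3H4, an endoplasmic reticulum protein needed in mice for lysyl hydroxylation of collagen, read 8.34, 8.02 and 8.46 in HGF + UO and 7.81, 8.81, 8.16 and 8.07 in HGF + PD, against 7.27, 7.46, 7.47 and 7.38 in HGF and 7.49, 7.01, 7.27 and 6.95 in Control. P3H4 had the largest positive HGF minus Control difference of the 16 (0.21).

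The last pair are structural and calcium-signalling genes. CEP112, a coiled-coil protein of the centrosome, read 7.42, 7.14 and 7.22 in HGF + UO and 7.97, 7.31, 7.94 and 8.14 in HGF + PD, against 6.21, 6.72, 5.93 and 6.36 in HGF and 6.26, 6.07, 5.90 and 6.60 in Control. CALM3, one of the genes that encode calmodulin, averaged 10.10 ± 0.09 in HGF + UO, 10.26 ± 0.05 in HGF + PD, 9.43 ± 0.08 in HGF and 9.29 ± 0.11 in Control. For both genes, as for all 16, every inhibitor array lay above every array without inhibitor, which follows largely from the choice of the genes.

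The members closest to the limit for HGF + UO were NARS2 (0.80), EDC3 (0.80), CALM3 (0.81) and MGST2 (0.83). Just outside were PNPLA4 with 0.799 in HGF + UO, FYN with an HGF minus Control of 0.304, ETNK2 with 0.791 in HGF + PD, and GNMT with an HGF minus Control of -0.311. These genes missed a limit by 0.011 or less on the log2 scale.

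Other probe sets of the same genes gave a mixed picture. Of 23 further probe sets, 18 passed the filter, on 12 of the 16 genes. CEP112, FNDC4, RNASEH2A and RNGTT had 1 probe set past the filter each. Of the 18, 3 met all the limits as well, 1 each of ENOSF1 (0.85 above Control with HGF + UO and 1.22 with HGF + PD), HPF1 (1.08 with HGF + UO and 1.06 with HGF + PD) and FILIP1L (1.17 with HGF + UO and 0.96 with HGF + PD).

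For 11 of the 16 genes the chosen probe set was also the gene's brightest. For the other 5 the brightest one missed a limit. MGST2 read 0.63 with HGF + UO on it, EDC3 0.49 with HGF + UO and 0.52 with HGF + PD, and P3H4 0.83 with HGF + UO and 0.89 with HGF + PD beside 0.31 with HGF alone. FABP1 was further from Control on its brighter probe set, at 3.75 with HGF + UO and 3.45 with HGF + PD, but its HGF minus Control there was -0.50.

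The dimmer probe sets of CALM3 and TMEM97 missed a limit. That of CALM3 read 0.52 with HGF + UO and 0.64 with HGF + PD, and that of TMEM97 read -0.42 with HGF alone. Probe sets of NARS2, FILIP1L, CLDN10 and CBWD1 disagreed. The other NARS2 probe set past the filter was about as bright as the chosen one (mean log2 7.10 against 7.15). It read 0.15 with HGF + UO and 0.30 with HGF + PD, against 0.80 and 1.11 on the chosen one. On the brightest CBWD1 probe set HGF minus Control was -0.89, with 0.07 in HGF + UO and 0.30 in HGF + PD. On another it was -2.36, with 0.13 in HGF + UO and -0.06 in HGF + PD. The other 2 CBWD1 probe sets past the filter read -0.18 and -0.53 with HGF alone. The first of them, with 0.53 in HGF + UO and 1.14 in HGF + PD, was nearer to the chosen one, and the second read 0.01 in HGF + UO and 0.38 in HGF + PD. The other 2 CLDN10 probe sets, at a mean log2 of 4.39 and 4.19, differed from Control by no more than 0.08 in any group. The chosen FILIP1L probe set read 4.59 with HGF + UO and 3.25 with HGF + PD, while 2 of its 3 other probe sets read 0.97 and 2.00 with HGF + UO and 0.05 and 0.54 with HGF + PD.

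**Figure D3:**
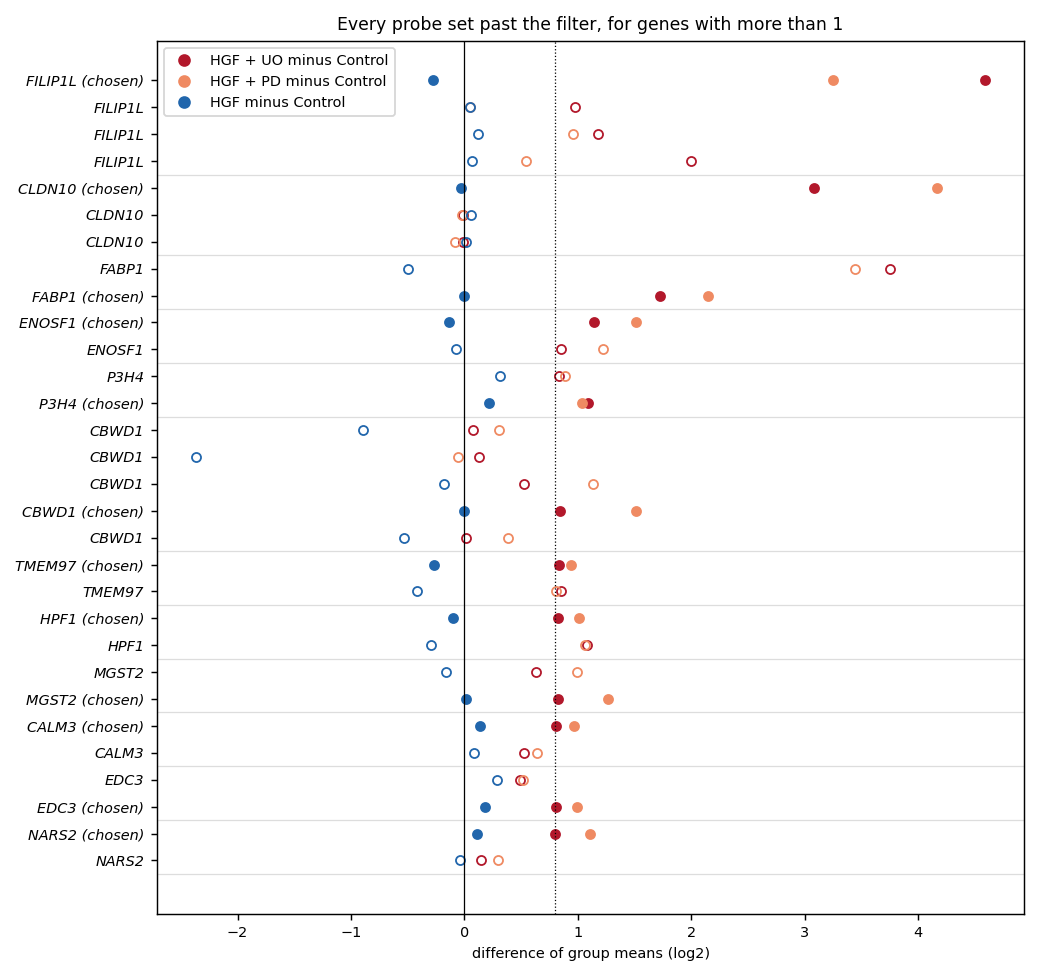
Difference from Control (log2) on every probe set past the filter, for the 12 genes with more than 1 (filled: the probe set chosen; open: other probe sets of the gene). The dotted line marks 0.8; the probe sets of FILIP1L, CLDN10 and CBWD1 lie far apart, and the brighter FABP1 probe set lies further to the right than the chosen one.

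The inhibitor groups were compared directly to ask whether the genes differed between them. Doses differed, 10 uM for UO and 50 uM for PD, so this compares the treatments as given. With limma's moderated test adjusted over the 24904 probe sets, 4 of the 16 genes passed an adjusted p of 0.05, against a background of 9.22%. In HGF + UO 3 of the 16 were lower than in HGF + PD, against 6.66% of all probe sets, and 1 was higher, against 2.55%. The median difference over the 16 was -0.25, beside -0.0046 over all probe sets tested. The 16 were chosen to be high in both inhibitor groups and the background was not, so these values compare unlike sets.

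FILIP1L was the gene that was higher with UO, by 1.34 ± 0.32 on the log2 scale (SE; 2.53-fold, adjusted p = 0.0199), and its groups did not overlap (at least 8.93 in HGF + UO and at most 8.24 in HGF + PD). The call was lost on leaving out some arrays. Without HGF + PD replicate 3 its adjusted p was 0.0525, without HGF + UO replicate 1 it was 0.0652, and without HGF + UO replicate 2 it was 0.0827, with differences between 1.19 and 1.29. Of its other probe sets, 2 of 3 were also higher with UO, by 0.92 ± 0.16 (adjusted p = 0.00313) and 1.46 ± 0.33 (adjusted p = 0.0143), and the third differed by 0.22 ± 0.19 (adjusted p = 0.526). FILIP1L thus differed between the inhibitor groups on 3 of its 4 probe sets.

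CLDN10 was lower with UO by 1.08 ± 0.23 (2.11-fold, adjusted p = 0.0119), although HGF + UO replicate 2 (7.00) lay above the lowest HGF + PD array (6.85). Its adjusted p became 0.0549 without HGF + UO replicate 1, 0.0568 without HGF + UO replicate 3, and 0.104 when only the 7 inhibitor arrays were fitted. The other 2 CLDN10 probe sets did not pass, with differences of 0.01 ± 0.05 (adjusted p = 0.917) and 0.07 ± 0.04 (adjusted p = 0.369). CBWD1 was lower by 0.67 ± 0.14 (adjusted p = 0.0121), with an adjusted p of 0.0635 without HGF + UO replicate 2. Of the other CBWD1 probe sets, 2 of 4 were lower too, with differences of -0.23 ± 0.07 (adjusted p = 0.0454) and -0.61 ± 0.08 (adjusted p = 0.000669).

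MGST2 was lower with UO by 0.44 ± 0.08 (1.35-fold, adjusted p = 0.00644), with no overlap between the groups. The inhibitor groups did not overlap for CALM3 (adjusted p = 0.179) and RNASEH2A (adjusted p = 0.0706) either, and these genes did not pass. No share of such probe sets over all those tested was computed. The brighter MGST2 probe set was lower by 0.36 ± 0.09 (adjusted p = 0.0199). The MGST2 call held in all 24 alternatives run, with adjusted p from 0.00342 to 0.0361.

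The other 12 genes did not pass. CEP112 differed by -0.58 (95% interval -1.04 to -0.12, adjusted p = 0.111) and RNASEH2A by -0.32 (-0.54 to -0.10, adjusted p = 0.0706). Without HGF + PD replicate 2 the CEP112 adjusted p was 0.0242, and without HGF + PD replicate 1 that of RNASEH2A was 0.0445. FABP1 was the least certain, with an interval from -1.64 to 0.79. P3H4 and FNDC4 differed by 0.06 (-0.36 to 0.48) and 0.20 (-0.15 to 0.55), and the remaining 7 by -0.37 to -0.09, with adjusted p from 0.135 to 0.657. Of these 7, the 95% intervals of ENOSF1 (-0.68 to -0.06), HPF1 (-0.34 to -0.02) and CALM3 (-0.30 to -0.01) were negative throughout. Those of EDC3, NARS2, RNGTT and TMEM97 were not. A difference that missed the threshold does not show that the treatments gave the same level.

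**Figure D4:**
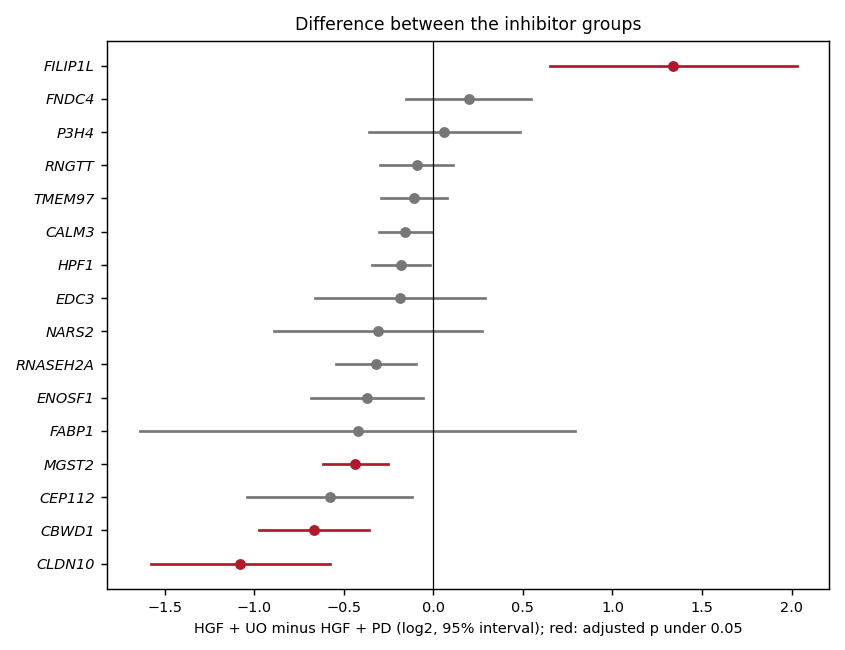
HGF + UO minus HGF + PD (log2) for the 16 genes, with the 95% interval of the limma fit. Red marks an adjusted p under 0.05: FILIP1L was higher with UO, and MGST2, CBWD1 and CLDN10 were lower.

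The other genes of the members' families and processes were read next. Genes of the same family or process were listed from textbook knowledge once the 16 were known. Some, such as CLDN4, MGST1 and TYMS, also stand in the gene lists used below, which were chosen with earlier results of these data known. Of 71 symbols listed, 43 were measured, each on its brightest probe set. Compared with Control, 14 were higher and 7 lower in HGF + UO, and 17 higher and 8 lower in HGF + PD, with medians of 0.04 and 0.09. Over all 10287 genes 1420 were higher and 1057 lower in HGF + UO and 2245 higher and 1390 lower in HGF + PD, both with a median of -0.01. None of the 43 could meet the limits that defined the 16 genes. A gene that met them on its brightest probe set was one of the 16 and was left out here. On the brightest probe set 11 of the 10287 genes met the limits, all of them among the 16.

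The other subunits of RNase H2 were higher with the inhibitors but also with HGF alone. RNASEH2B was 0.82 ± 0.13 above Control in HGF + UO, 1.06 ± 0.12 in HGF + PD and 2.00 ± 0.12 in HGF. RNASEH2C was 1.23 ± 0.08, 1.75 ± 0.08 and 1.14 ± 0.08 above it in the same groups. RNASEH2A, chosen for little difference with HGF, stood at 0.00 with HGF alone. TYMS, the thymidylate synthase gene that lies next to ENOSF1 in the RefSeq dog annotation (UU_Cfam_GSD_1.0), was 1.11 ± 0.06 above Control in HGF + UO, 1.38 ± 0.06 in HGF + PD and 0.85 ± 0.06 in HGF.

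Among relatives of MGST2, MGST1 was 2.17 ± 0.25 above Control in HGF + UO and 3.09 ± 0.23 in HGF + PD, while it was 2.61 lower with HGF alone. In the list of aryl hydrocarbon receptor, NRF2 and xenobiotic metabolism genes, which holds MGST2, 8 of 18 other genes measured were higher and 3 lower in HGF + UO, and 7 higher and 5 lower in HGF + PD, with medians of -0.01 and -0.06. NQO1, a quinone reductase, was higher by 2.97 ± 0.11 in HGF + UO and by 2.63 ± 0.10 in HGF + PD, and TIPARP, a target of the aryl hydrocarbon receptor, by 2.15 ± 0.06 in HGF + UO and 2.03 ± 0.06 in HGF + PD. With HGF alone NQO1 was already 2.44 ± 0.10 and TIPARP 0.71 ± 0.06 above Control.

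CLDN10, above Control with both inhibitors by the way it was chosen, was set beside the other claudins. Of 7 measured, 4 were lower with both inhibitors and none was higher with UO (1 at an unadjusted p under 0.05 by limma), while CLDN16 was higher with PD (0.88 ± 0.09; 0.25 ± 0.10 in HGF + UO, adjusted p = 0.0980). CLDN4, a sealing claudin, differed from Control by -1.07 ± 0.08 in HGF + UO and -0.998 ± 0.07 in HGF + PD, and was higher by 1.04 ± 0.07 with HGF alone. The wider junction and polarity list had 0 of 32 genes higher and 18 lower in HGF + UO, and 1 higher and 24 lower in HGF + PD, with medians of -0.37 and -0.45. By limma at an unadjusted p under 0.05, 1 of the 32 was higher and 23 were lower in HGF + UO.

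PARP2, one of the enzymes that HPF1 works with, was 0.56 ± 0.09 above Control in HGF + UO and 0.59 ± 0.09 in HGF + PD, and differed by -0.13 ± 0.09 with HGF alone (adjusted p = 0.242). PARP1 did not pass in either inhibitor group (0.12 in HGF + UO and 0.02 in HGF + PD). The decapping factors EDC4, DCP1A and DCP1B did not pass in either group, and DDX6, a helicase that works with them, was lower in HGF + UO (-0.26 ± 0.08, adjusted p = 0.0233; -0.14 ± 0.07 in HGF + PD, adjusted p = 0.142). CALM2, another calmodulin gene, differed from Control by -0.05 ± 0.04 in HGF + UO and 0.03 ± 0.03 in HGF + PD, and did not pass. The fatty acid-binding protein FABP3 was 2.02 ± 0.16 above Control in HGF + UO and 2.68 ± 0.15 in HGF + PD, but 5.55 ± 0.15 above it with HGF alone.

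Of 7 sterol genes measured beside TMEM97, 3 were higher in HGF + UO, 5 in HGF + PD and 6 in HGF. INSIG1, a sterol feedback regulator, was 0.73 ± 0.08 above Control in HGF + UO, 1.32 ± 0.08 in HGF + PD and 2.88 ± 0.08 in HGF, and HMGCS1, an early enzyme of cholesterol synthesis, was 0.57 ± 0.07, 1.15 ± 0.06 and 2.27 ± 0.06 above it in the same groups. NPC1 was 1.75 ± 0.12 above Control with HGF and did not pass with either inhibitor (0.02 in HGF + UO and 0.08 in HGF + PD). TMEM97 itself was chosen within the HGF window and stood at -0.27 with HGF alone.

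**Figure D5:**
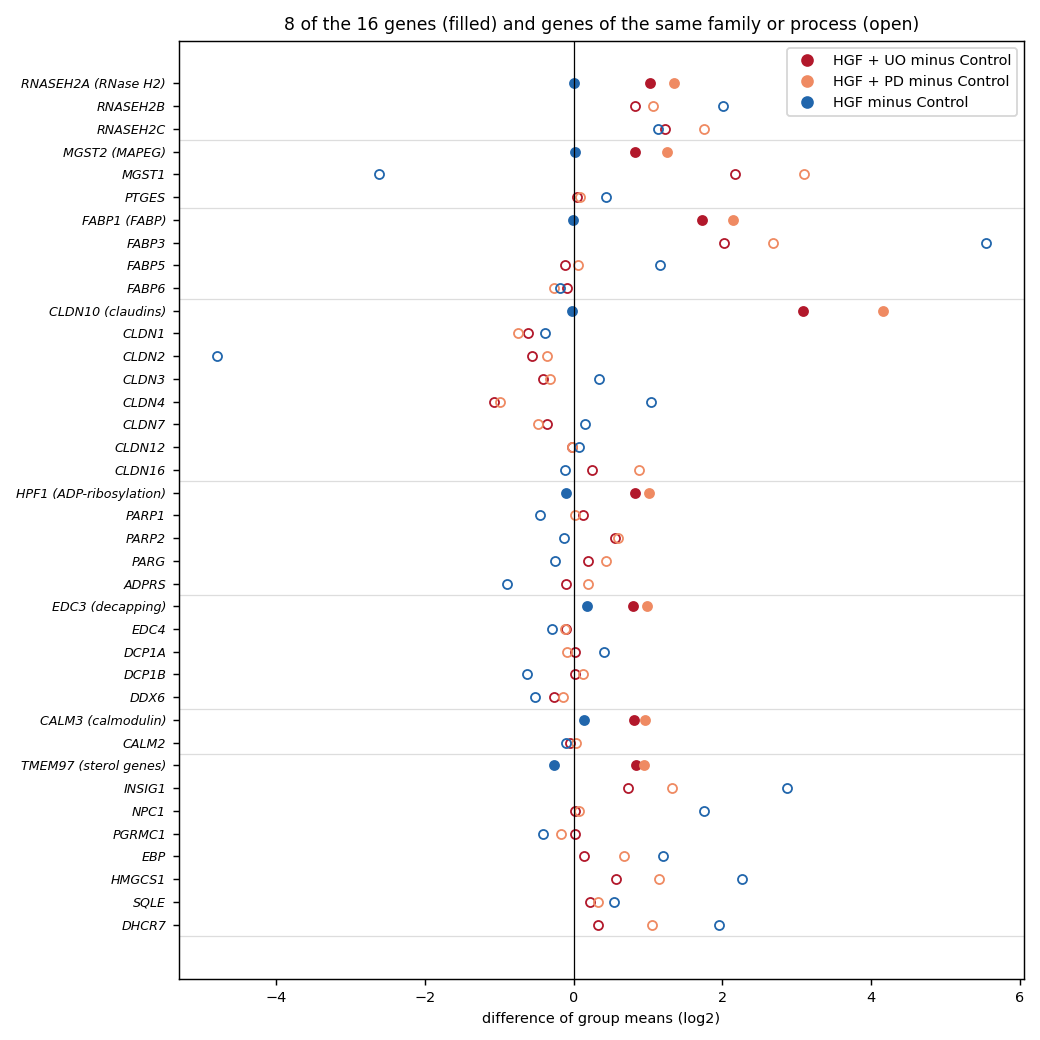
Difference from Control (log2) for 8 of the 16 genes (filled) and for measured genes of the same family or process (open), each on 1 probe set. Blue points mark HGF alone. For the 8 genes they lie near 0 because the limits used to choose the genes required it. Their relatives had no such limit and lie up to 5.55 above Control (FABP3) or 4.80 below it (CLDN2). This contrast was therefore set by the choice of the genes and was not tested. Relatives are shown on their brightest probe set and the 8 genes on the chosen one, which was not always the brightest.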

How the data were processed

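The authors deposited linear probe set intensities summarised with GCRMA, per the submitters' processing notes; its version and settings are not given in the sources used here. GCRMA corrects background by probe sequence, normalises between arrays and compresses dim probe sets towards a floor. Of 43035 probe sets, 111 array controls were left out, log2 was taken without further scaling, and 24904 (58.0%) with log2 of at least 4 on 3 of 15 arrays were kept. The number of arrays limits precision. Gene names came from GEO's platform annotation; 15 of 16 genes matched RefSeq by gene identifier.

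limma 3.58.1 in R 4.3.3 (lmFit with 1 mean per group on all 15 arrays, eBayes with a trend, Benjamini-Hochberg over the 24904) gave every adjusted p and SE. The procedure was tested on simulated data. Members, the limits and 21 gene lists were chosen with earlier results of these data known. All 16 genes are named, as the naming rule asks for up to 30 members; further genes are list members with large changes, the nearest misses, or relatives chosen after the 16 were known. Per the labels the arrays are biological repeats, with no word on separate cultures or days. A p-value here reflects array-to-array scatter, which may be partly technical. Replicate numbers were not taken as pairs. Of 21 same-numbered pairs, 8 correlated above 0.1 in their deviations (-0.25 to 0.41), and 5 of 15 arrays correlated best with an array of their own number. These values do not settle whether the numbers mark pairs. Alternatives covered scaling, filter, offset, limits, variance model, replicate block and leaving out each array. The highest correlation between any pair of arrays was 0.998, and no array was treated as a duplicate.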

Additional observations from a re-analysis of the deposited data

Results flagged for a closer look

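Each group of 4 arrays was checked for an array far from the others, 48 groups over the 16 genes; the HGF + UO group, with 3 arrays, was not. In 2 of 48 groups 1 array stood apart, and chance flags about 1 in 20. CLDN10 on HGF replicate 4 read 3.08, against 3.16 to 3.18 on the other HGF arrays, a gap of less than 0.1 at the floor of the array. TMEM97 on Control replicate 3 read 9.64, against 9.82 to 9.84 on the other Control arrays.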

How the results depend on the processing

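The number of genes found moved with the limits: 52 genes with both inhibitor differences at least 0.6, 9 at least 1.0, and 26 with HGF minus Control within 0.5. Only 3 of the 16 had another probe set past the filter that met the limits too. Taking each gene's brightest probe set before the limits, an alternative chosen after seeing the data, left 11. Quantile normalization found 15 genes (14 of the 16), median centring 16 (14), and adding 32 to the intensity 15 (11). Leaving out 1 array gave 12 to 20 genes; without Control replicate 3 there were 12, of which 10 were among the 16. For HGF + UO against HGF + PD, leaving out 1 array gave 2 to 5 genes called (2 without HGF + UO replicate 1 or 2), with 0 to 1 higher, and 1208 to 2924 probe sets called (1208 without HGF + PD replicate 4, and 1254 to 1484 without an HGF + UO array); fitting the 7 inhibitor arrays alone called 997 probe sets, against 2295. With the replicate block the same number, 4 of 16, was called (3 lower and 1 higher), with 1858 probe sets. Whether the replicate numbers mark pairs was not settled. By median centring RNASEH2A passed (adjusted p = 0.0497). No difference between the inhibitor groups that passed, or came to pass, changed direction in any alternative run. Adding 32 to the intensity shrank the dim genes most: CLDN10 to 1.42 in HGF + UO and 2.25 in HGF + PD, and FABP1 to 0.32 and 0.49. FILIP1L fell to 3.46 in HGF + UO and 2.23 in HGF + PD, and EDC3 to 0.63 in HGF + PD, under the limit of 0.8. GCRMA's floor limits what can be said of CLDN10 and FABP1 without inhibitor.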

Other observations

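Genes of other lists were counted by limma at an adjusted p under 0.05 on the brightest probe set of each gene; the lists themselves were not tested. Over all 10287 genes, 1420 were higher and 1057 lower than Control in HGF + UO, 2245 higher and 1390 lower in HGF + PD, and 2882 higher and 2850 lower in HGF. Between the inhibitor groups, 278 were higher and 727 lower in HGF + UO. Over the 358 of 516 listed genes measured, marker lists aside, 51 were higher and 81 lower in HGF + UO. In HGF + PD 72 were higher and 100 lower. The 16 genes were left out of these counts, so none of the 358 could meet the limits of the 16. Of 25 mitosis and S phase genes, 22 were higher and 1 lower in HGF + UO, 24 were higher in HGF + PD and 24 in HGF. The cyclin CCNA2 was 2.18 ± 0.13 above Control in HGF + UO, 2.72 ± 0.12 in HGF + PD and 2.65 ± 0.12 in HGF (SE). In HGF + UO 15 of the 25 were lower than in HGF + PD, with a median difference of -0.42. Of 16 interferon response genes, 9 were lower in HGF + UO and 9 in HGF + PD, while 4 were higher and 6 lower in HGF. OAS2, an antiviral enzyme, differed from Control by -0.71 ± 0.11 in HGF + UO, -0.80 ± 0.10 in HGF + PD and 1.65 ± 0.10 in HGF. Of 29 primary cilium genes, 0 were higher and 1 lower in HGF + UO (2 higher and 5 lower at an unadjusted p under 0.05), 8 were higher and 3 lower in HGF + PD, and 1 was higher and 21 lower in HGF. RPGRIP1L, a protein of the ciliary transition zone, differed from Control by -0.06 ± 0.11 in HGF + UO, 0.64 ± 0.10 in HGF + PD and -2.80 ± 0.10 in HGF, and was lower in HGF + UO than in HGF + PD (adjusted p = 0.0017).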
